A study of Homo sapiens with 15 samples.

Results

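This account compares NF1-edited MCF-10A cells made with guide RNA 2 against the unedited parental cells. The members are the 3 guide 2 libraries and the 3 parental libraries, 6 of the 15 libraries in the series, and they were chosen by their labels. MCF-10A is a non-tumorigenic human mammary epithelial line. All cells were untreated and were grown in phenol red-free DMEM/F12 with horse serum, EGF, hydrocortisone, cholera toxin and insulin, so every group received an EGF receptor ligand. The guide 2 cells carry the genotype label NF1-g2. The remaining libraries are 3 each of empty-vector cells, guide 1 cells and cells given guides 1 and 2. They entered the main fit, where all 15 libraries share an estimate of the spread, and serve below as further reference levels. Whether an edited line was 1 clone or a pool, and how the guides were delivered, is not given in the sources used here. The labels call the 3 libraries of a group biological replicates without saying what was separate about them. The p-values measure the spread between libraries of a group, taken over all groups in the fit.

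Neurofibromin, the NF1 protein, speeds the return of RAS from its active GTP-bound form to its inactive form by activating its GTPase. RAS in its active form drives the RAF, MEK and ERK kinases, and ERK in turn induces transcripts such as the Sprouty and DUSP genes, whose products damp the same pathway. MCF-10A cells are known for basal mammary epithelial features, and cultures of this line can also hold cells with mesenchymal features, in which epithelial genes are repressed by factors such as ZEB1 and ZEB2.

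The 6 libraries held between 46193664 counts (parental replicate 3) and 69186523 counts (guide 2 replicate 3), so 3 counts, the level below which a gene is treated as not detectable, correspond to 0.0434 to 0.0649 CPM. Such floors and the intervals below cover counting error only. CPM, a gene's count scaled to the total of its library (counts per 1e6 counts), is not corrected for gene length, so levels are compared between libraries and not between genes. The labelled identity was checked on marker genes. CDKN2A and CDKN2B, which lie in the chromosome 9 region known to be deleted in MCF-10A, had 0 counts in all 6 libraries, and the basal keratin KRT5 was present at 709 to 5000 CPM. Of 4 genes listed for that region 2 were at 0 in all 6, and the list summed to 0.199 to 1.19 CPM. KRT5 does not stand for all basal genes. TP63 had 8 counts in guide 2 replicates 1 and 3 together, and other basal genes were low there too, as given below. The leukocyte genes CD3E and MS4A1 and the endothelial genes TIE1 and CLDN5 were at 0 in all 6, and the fibroblast genes COL3A1 and TCF21 did not exceed 0.047 CPM. Other genes of those lists were present: the fibroblast list summed to 162 to 524 CPM with none of 10 at 0 in all 6 libraries, the leukocyte list to 6.05 to 9.76 CPM with 3 of 10 at 0, and the endothelial list to 6.40 to 16.9 CPM with 2 of 10 at 0. Between 33.4% and 76.8% of genes differed beyond counting noise in each pair of libraries, so none was the same library read again. This cannot tell whether a pair of libraries came from the same culture or RNA. Guide 2 replicates 1 and 3 were the closest pair. Of genes with a mean log2 CPM of at least 1, 0.00862% were at least 2-fold apart between them. In every other pair that share was at least 1.21%.

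NF1 itself was low in all 3 guide 2 libraries. The gene (ENSG00000196712, GRCh38 chr17:31094927-31382116, plus strand, GENCODE release 29) was at 27.0, 31.4 and 29.8 CPM in guide 2 replicates 1, 2 and 3 and at 159, 141 and 153 CPM in the parental replicates. The means were 29.4 ± 2.27 CPM (SD, n = 3) and 151 ± 9.3 CPM (SD, n = 3), so guide 2 cells held 19.5% of the parental level, and the groups lay far apart. The log2 fold change was -2.34 (SE 0.0917, adjusted p = 3.18e-08, edgeR quasi-likelihood test, Benjamini-Hochberg over 17457 genes). An exact two-sided permutation test of the CPM gave p = 0.1, the smallest that 3 libraries against 3 can give. Empty-vector cells held 115, 123 and 133 CPM, also well above guide 2. The values of the libraries that stand apart, guide 2 replicate 2 and parental replicate 1, did not depart from their groups in this gene. Without both, the log2 fold change was again -2.34 (SE 0.10, adjusted p = 2.25e-07 in edgeR).

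Across all genes the comparison called few changes. At an adjusted p under 0.05 the edgeR fit over all 15 libraries called 9 of 17457 genes, or 0.0516%, with 4 higher in guide 2 (0.0229%) and 5 lower (0.0286%). An unadjusted p under 0.05 was reached by 1287 genes. This count rested on which libraries were used: it was 1064 without guide 2 replicate 2, and between 2 and 15 when any other of the 6 libraries was left out. When both libraries that were to be taken apart were left out, 654 of 17738 genes were called (3.69%), with 331 higher (1.87%) and 323 lower (1.82%) in guide 2, and all 9 genes of the main comparison were among them.

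**Figure D1:**
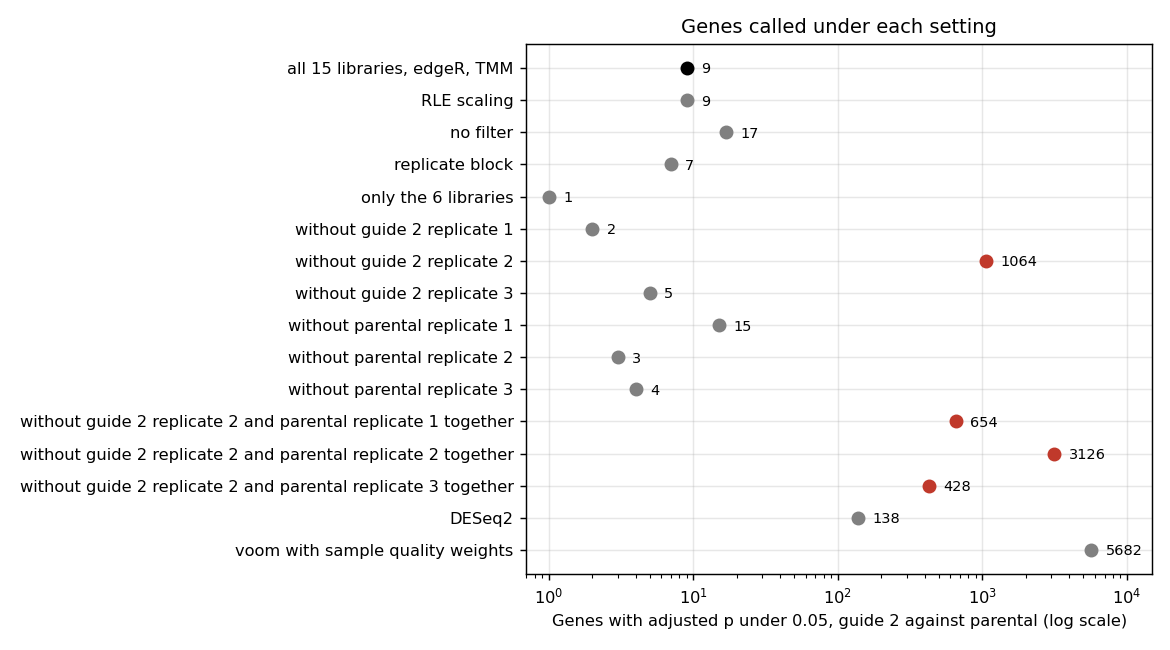
Number of genes with an adjusted p under 0.05 between guide 2 and parental cells (x axis, log scale) under each setting (y axis), with the main fit in black and the fits that leave out guide 2 replicate 2 in red. The main fit called 9 genes, and the fits without guide 2 replicate 2 called 428 to 3126.

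The other 4 genes called lower in guide 2 were low in all 3 of its libraries, replicate 2 included. C9orf64 (chr9:83938311-83956986, minus strand), which encodes a queuosine salvage protein, was at 0.126, 0.0906 and 0.0578 CPM in guide 2 and at 1.16, 0.815 and 0.866 CPM in parental cells. Its log2 fold change was -3.34 (SE 0.30, adjusted p = 4.55e-04 in edgeR), and with NF1 it was called in all 6 fits that left out 1 library. JAM3 (chr11:134068925-134152001, plus strand), a junctional adhesion molecule, was at 1.25, 0.942 and 1.36 CPM against 3.89, 3.73 and 6.15 CPM. It fell by 1.93 on the log2 scale (SE 0.24, adjusted p = 0.00919 in edgeR) and was called in 5 of the 6 fits. HEPH (chrX:66162549-66268867, plus strand), which encodes hephaestin, a copper-containing ferroxidase of iron export, had 0, 0 and 2 counts in guide 2 against 138 in parental cells, spread as 0.351, 0.987 and 1.19 CPM. From these counts the parental level was 74.2 times the guide 2 level (exact binomial 95% interval 20.2 to 619, counting error only). HEPH (edgeR adjusted p = 0.0171) was called in 2 of the 6 fits. The last was the antisense transcript ENSG00000271857 (chr6:45421079-45422005, minus strand), at 0.126, 0.0725 and 0.13 CPM against 0.509, 0.721 and 0.649 CPM. It fell by 2.46 on the log2 scale (edgeR adjusted p = 0.00919, called in 4 of the 6 fits). Whether its reads were counted by strand is not given in the sources used here, so reads of an overlapping gene cannot be told apart from its own.

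The 4 genes called higher lay above the parental range in every guide 2 library, with the widest spread within guide 2 in TLR4. SH3TC2 (chr5:148923639-149063163), which encodes an endosomal recycling protein of Schwann cells, was at 33.3, 32.9 and 35.2 CPM in guide 2 and at 22.6, 23.1 and 24.2 CPM in parental cells. Its groups were tight and the difference small, with a log2 fold change of 0.56 (SE 0.0806, adjusted p = 0.0237 in edgeR). TLR4 (chr9:117704175-117724730), the receptor for bacterial lipopolysaccharide, was at 16.0 and 18.1 CPM in guide 2 replicates 1 and 3 but at 4.13 CPM in replicate 2, all above the parental 2.68, 1.80 and 1.86 CPM. The log2 fold change was 2.61 (SE 0.405, adjusted p = 0.0436 in edgeR). BMP6 (chr6:7726797-7881422), a secreted bone morphogenetic protein, was at 2.48, 1.30 and 2.01 CPM against 0.614, 0.313 and 0.498 CPM, a log2 fold change of 2.04 (SE 0.292, adjusted p = 0.0237 in edgeR). PDE3A (chr12:20369245-20684381), a phosphodiesterase that degrades cyclic AMP, had 75 counts in the guide 2 libraries and 1 in the parental libraries (edgeR adjusted p = 0.00919). That is a ratio of 69.7 (exact binomial 95% interval 12.1 to 2790), at a level of no more than 0.542 CPM.

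The calls for the higher genes were lost most often. SH3TC2 and TLR4 were each called in 1 of the 6 fits that left out 1 library, that without guide 2 replicate 2, BMP6 in 2 and PDE3A in 3. With the replicate number as a block in edgeR, SH3TC2 (adjusted p = 0.0865) and TLR4 (adjusted p = 0.0768) were no longer called. With only the 6 libraries in the fit, NF1 (edgeR adjusted p = 0.00342) was the 1 gene called.

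**Figure D2:**
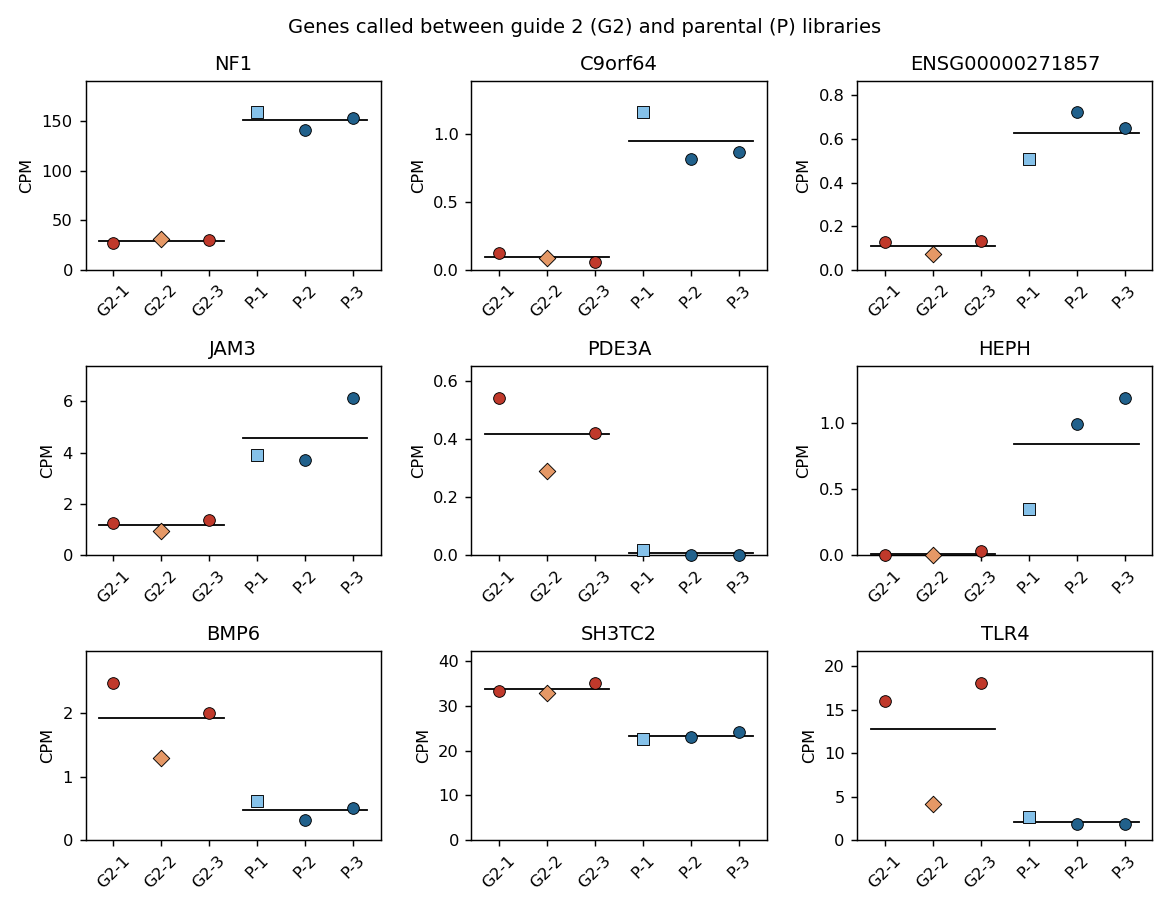
CPM (y axis, from 0) of the 9 called genes in the 3 guide 2 libraries (G2-1 to G2-3) and the 3 parental libraries (P-1 to P-3), with a line at each group's mean and separate symbols for guide 2 replicate 2 and parental replicate 1. In none of the 9 genes do the groups overlap, and in TLR4 guide 2 replicate 2 sits at 4.13 CPM, well under the 16.0 and 18.1 CPM of its group.

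The empty-vector cells gave a further reference for these genes, and for 3 of the higher ones they lay on the guide 2 side of the parental level. TLR4 was at 9.91, 9.44 and 10.7 CPM in the empty-vector libraries, BMP6 at 1.56, 1.60 and 1.44 CPM and PDE3A at 0.928, 0.959 and 0.653 CPM. Against parental cells, empty-vector cells differed in all 3 (edgeR adjusted p = 0.0105, 0.00875 and 0.00101). Guide 2 against empty vector was not called for TLR4 (log2 fold change 0.34, edgeR adjusted p = 0.69), BMP6 (0.32, adjusted p = 0.575) or PDE3A (-1.03, adjusted p = 0.177). JAM3 fell by 1.27 on the log2 scale against the empty vector too (edgeR adjusted p = 0.0127), from 2.89, 2.21 and 3.41 CPM. C9orf64 stood at 2.38, 2.36 and 2.91 CPM in empty-vector cells, above the parental level, so the difference from guide 2 was larger there (log2 fold change -4.80, edgeR adjusted p = 5.86e-06). Neither gene was low in the line given both guides, which held 2.38 to 3.06 CPM of C9orf64 and 6.0 to 7.02 CPM of JAM3, while the guide 1 line held at most 0.038 and 0.115 CPM.

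Beyond the called genes, 668 genes were higher in every guide 2 library than in every parental library (3.83% of those tested) and 970 were lower (5.56%). Named here are those with the smallest p among genes with a mean log2 CPM of at least 1. Of the 10 higher and 10 lower genes taken in this way, SH3TC2, TLR4, NF1 and JAM3 passed the test and the other 16 did not. HMGA2, an architectural chromatin protein, was at 131, 134 and 132 CPM against 104, 84.8 and 105 CPM (edgeR adjusted p = 0.169). MALAT1, a nuclear long non-coding RNA, was at 1630, 2120 and 1730 CPM against 974, 936 and 1060 CPM (edgeR adjusted p = 0.126). MAPK13, the p38 delta kinase, was at 7.14, 6.78 and 6.61 CPM against 3.67, 3.26 and 3.96 CPM (edgeR adjusted p = 0.0803), and PODXL2 at 18.2, 14.3 and 17.7 CPM against 11, 11.2 and 10.6 CPM (edgeR adjusted p = 0.0608). That every guide 2 library lay above the parental range in these 4 follows from how they were picked.

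Among the lower genes of this kind, CYP1B1, a cytochrome P450 of oestrogen and xenobiotic metabolism, was at 116, 182 and 155 CPM against 321, 272 and 258 CPM (edgeR adjusted p = 0.209). DDIT4, a stress-induced inhibitor of mTORC1, was at 257, 273 and 298 CPM against 360, 500 and 441 CPM (edgeR adjusted p = 0.209). CD24, a cell-surface glycoprotein used to sort mammary cells, was at 20.2, 22.1 and 17.3 CPM in guide 2 but spread from 35.2 to 171 CPM in parental cells, with parental replicate 1 the lowest (edgeR adjusted p = 0.209). FPR1, the formyl peptide receptor, was at 1.5, 0.562 and 1.97 CPM against 3.68, 28.0 and 8.23 CPM (edgeR adjusted p = 0.169). The rest of the 20 were RGS4, IFITM2, HSD17B1 and NPAS2 on the higher side and HSPA2, FHDC1, ZKSCAN8 and ZNF608 on the lower side, with edgeR adjusted p from 0.114 to 0.223. HSPA2 and DDIT4 were as low in the empty-vector cells, at 5.86 to 7.43 and 198 to 252 CPM.

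Guide 2 replicate 2 departed from its group over a large share of the transcriptome. Of 11606 genes with a mean log2 CPM of at least 1, it was at least 2-fold above the mean of replicates 1 and 3 in 676 and at least 2-fold below it in 1119, together 15.5%. Parental replicate 1 departed less, with 184 genes above and 137 below the mean of the other parental libraries (2.77%). Parental replicate 2 departed by a similar share, with 77 above and 201 below (2.4%), and parental replicate 3 in 0.508%. Across genes, the log2 CPM of guide 2 replicates 1 and 3 correlated at 0.995, and that of replicate 2 with either at 0.947. Guide 2 replicate 2 correlated at 0.985 with parental replicate 1, and guide 2 replicates 1 and 3 at 0.989 and 0.990 with parental replicate 2. These correlations are over genes within a shared set of libraries and describe only which libraries lay close.

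On the first principal component of the 6 libraries, which held 67.9% of the variance, the order was guide 2 replicate 2 at 92.9, parental replicate 1 at 42.3, parental replicate 3 at 10.0, parental replicate 2 at -35.8 and guide 2 replicates 1 and 3 at -54.5 and -54.9. The groups were mixed along it. On the second component, with 15.1%, the guide 2 libraries lay between 21.1 and 25.4 and the parental libraries between -40.7 and -6.9, so there the groups did not overlap. Total counts (55174107 for guide 2 replicate 2, 57016249 for parental replicate 1) and scaling factors of 0.9875 to 1.017 were within the range of the other libraries.

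The 8 genes furthest above their group in guide 2 replicate 2, with a mean log2 CPM of at least 1, were FAT2, LAD1, CDH1, TP63, ESRP1, MPZL2, DSG3 and COL17A1. E-cadherin, CDH1 (chr16:68737225-68835548), the adhesion protein of epithelial adherens junctions, was at 0.0361 and 0.0434 CPM in guide 2 replicates 1 and 3 and at 91.4 CPM in replicate 2. In the parental replicates 1, 2 and 3 it was at 42.9, 1.79 and 37.8 CPM. TP63, the transcription factor of basal epithelium, was at 0.0542, 75.8 and 0.0723 CPM in guide 2 and at 37.4, 0.815 and 19.9 CPM in parental cells. ESRP1, which directs epithelial splicing, was at 0.0723, 86.6 and 0.0289 CPM against 37.3, 0.642 and 13.6 CPM. In all 3 genes replicate 2 was the highest of the 6 libraries, replicates 1 and 3 were the lowest, and the parental libraries lay between with replicate 2 at their low end.

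Structural genes of epithelium followed the same order. COL17A1, the hemidesmosomal collagen XVII, was at 1.39, 553 and 1.86 CPM in guide 2 and at 337, 21.3 and 244 CPM in parental cells. KRT14, a basal keratin, was at 18.9, 1150 and 17.4 CPM against 545, 37.8 and 265 CPM. FAT2, a giant atypical cadherin of epidermis, was at 0, 193 and 0.0289 CPM against 99.7, 2.26 and 47.8 CPM, where 0 counts allow up to 0.0542 CPM. The order was not the same for every epithelial gene, since EPCAM, an epithelial adhesion molecule, was at 2.62, 103 and 2.67 CPM in guide 2 and at 29.1, 1.93 and 8.14 CPM in parental cells, with parental replicate 2 below both low guide 2 libraries.

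Mesenchymal genes ran the other way within guide 2. ZEB1, a repressor of epithelial genes, was at 56.1, 16.7 and 54.4 CPM in guide 2 against 38.2, 46.7 and 43.1 CPM in parental cells. Its relative ZEB2 was at 37.8, 9.75 and 41.9 CPM against 30.6, 54.2 and 49.1 CPM. N-cadherin, CDH2, was at 84.2, 17.9 and 77.0 CPM against 61.3, 98.0 and 88.9 CPM, and the matrix metalloprotease MMP2 at 84.2, 7.30 and 83.7 CPM against 34.1, 122 and 72.3 CPM. In all 4, guide 2 replicate 2 was the lowest library and parental replicate 1 the lowest parental one. SNAI2, another repressor of this family, was at 135, 161 and 127 CPM against 148, 127 and 155 CPM and did not follow that order. These are whole-culture levels, in which fewer cells of a state and less RNA per cell cannot be told apart.

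**Figure D3:**
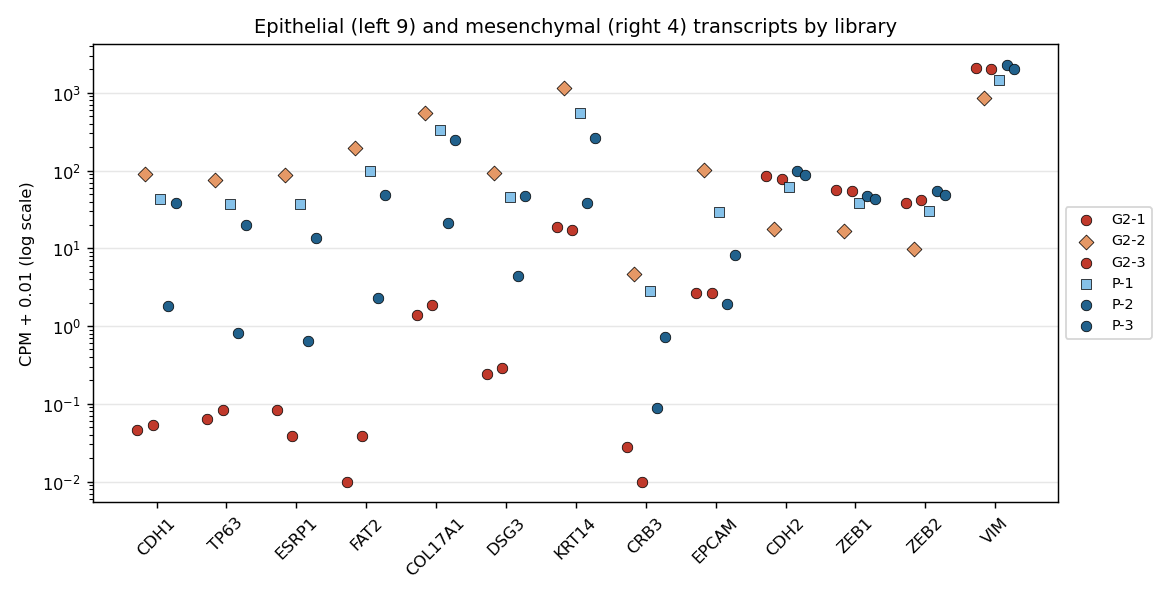
CPM plus 0.01 (y axis, log scale) of 9 epithelial and 4 mesenchymal transcripts in the guide 2 (G2) and parental (P) libraries. Guide 2 replicate 2 and parental replicate 1 are the highest or among the highest for the epithelial genes, guide 2 replicates 1 and 3 are the lowest for most, and parental replicate 2 is the lowest parental library; the order turns for CDH2, ZEB1, ZEB2 and VIM.

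Of the other genes furthest above, the ladinin gene LAD1 was at 0.0181, 105 and 0.0145 CPM in guide 2 and DSG3, a desmosomal cadherin, at 0.235, 91.7 and 0.275 CPM. Among those furthest below were TMPRSS15 (12.4, 0.381 and 16.1 CPM), COL28A1 (11.9, 0.707 and 15.5 CPM) and RBP4, the retinol carrier (18.2, 1.03 and 19.7 CPM). The 8 genes furthest above the rest of the parental group in parental replicate 1 also held FAT2, LAD1, TP63, ESRP1 and MPZL2. That replicate was the lowest parental library for TMPRSS15 (0.561, 5.80 and 5.26 CPM) and RBP4 (1.54, 10.2 and 3.94 CPM) and the highest for PTPRZ1, a receptor phosphatase (24.4, 0.94 and 7.10 CPM), and for MAL2, an apical trafficking protein (208, 6.19 and 105 CPM).

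ZEB1, ZEB2 and SNAI2 are known to bind E-boxes, and whether they act on these genes was not tested. Promoters were searched for the E-box letters CACCTG and CAGGTG, which are the reverse complement of each other, so that both strands are covered. The window ran from 250 bases before to 50 after the start (RefSeq, GRCh38.p14). Among 22114 genes with 1 such promoter in the table, 20.8% held at least 1 match. Of the 22 genes of epithelial junctions and splicing, 6 had 1 promoter there and 3 held a match (DSP, CRB3 and RAB25). Of 15 basal epithelial genes, 5 had 1 and 2 held a match (KRT5 and LAMA3). Of the 8 genes with the largest fall without guide 2 replicate 2 and parental replicate 1, 5 had 1 and 1 held a match (LAD1), or 20.0%. The 4 sequences below are printed to show the range, from 5 matches in CRB3 (a cell polarity protein) through 2 in LAD1 and DSP (desmoplakin) to none in COL17A1, which was among the genes with the widest spread. Capitals mark the matches, and each strand is that of the gene: CRB3 chr19:6464021-6464320 (plus), LAD1 chr1:201399275-201399574 (minus), DSP chr6:7541421-7541720 (plus) and COL17A1 chr10:104085831-104086130 (minus).
CRB3: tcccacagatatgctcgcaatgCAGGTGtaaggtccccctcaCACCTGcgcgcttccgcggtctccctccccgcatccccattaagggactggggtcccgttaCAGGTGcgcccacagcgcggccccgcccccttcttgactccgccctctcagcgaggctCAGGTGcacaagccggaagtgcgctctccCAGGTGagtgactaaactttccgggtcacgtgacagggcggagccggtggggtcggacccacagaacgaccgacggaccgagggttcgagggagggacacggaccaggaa
LAD1: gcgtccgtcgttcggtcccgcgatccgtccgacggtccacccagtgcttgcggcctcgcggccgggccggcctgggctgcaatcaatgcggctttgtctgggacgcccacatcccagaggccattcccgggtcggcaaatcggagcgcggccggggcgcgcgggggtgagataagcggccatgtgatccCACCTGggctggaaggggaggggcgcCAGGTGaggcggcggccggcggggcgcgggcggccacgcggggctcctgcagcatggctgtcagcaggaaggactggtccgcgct
DSP: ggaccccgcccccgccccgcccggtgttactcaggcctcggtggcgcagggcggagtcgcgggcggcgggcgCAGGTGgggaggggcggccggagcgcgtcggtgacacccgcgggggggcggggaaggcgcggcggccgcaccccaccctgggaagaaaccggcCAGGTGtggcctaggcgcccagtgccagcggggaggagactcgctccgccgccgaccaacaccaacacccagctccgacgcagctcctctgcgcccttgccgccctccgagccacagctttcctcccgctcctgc
COL17A1: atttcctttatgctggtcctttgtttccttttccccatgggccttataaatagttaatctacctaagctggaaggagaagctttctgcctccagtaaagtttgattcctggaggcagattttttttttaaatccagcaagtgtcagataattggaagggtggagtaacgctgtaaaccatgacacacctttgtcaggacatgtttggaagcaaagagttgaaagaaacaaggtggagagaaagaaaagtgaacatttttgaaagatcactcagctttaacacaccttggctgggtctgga
In CRB3 the matches begin 228, 208, 147, 89 and 60 bases before the start, in LAD1 61 and 35, and in DSP 178 and 85. A match is only a run of letters in this window, and no binding was measured. In expression, CRB3 was at 0.0181, 4.62 and 0 CPM in guide 2 and at 2.81, 0.0783 and 0.714 CPM in parental cells, and DSP at 103, 815 and 116 CPM against 517, 172 and 365 CPM, the order of CDH1 in both.

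Left without guide 2 replicate 2 and parental replicate 1, the comparison set guide 2 replicates 1 and 3 against parental replicates 2 and 3, and the epithelial genes were then called lower. The 8 with the largest fold change among genes with a mean log2 CPM of at least 1 were FAT2, LAD1, CDH1, TP63, ESRP1, MPZL2, DSC3 and DSG3. FAT2 had 2 counts in the guide 2 pair and 2353 in the parental pair, a ratio of 1330 (exact binomial 95% interval 368 to 11000). CDH1 had 5 and 1859 counts, a ratio of 421 (180 to 1300), and TP63 had 8 and 973, a ratio of 138 (69.6 to 320). Their edgeR adjusted p were 0.00888, 0.0153 and 0.0165. DSC3, a desmosomal cadherin, was at 0.632 and 0.593 CPM against 37.2 and 85 CPM (log2 fold change -6.61, SE 0.73, edgeR adjusted p = 5.93e-04) and had the closest parental pair of the 8. In the other 7 the parental pair itself was widely spread, as in DSG3 at 4.42 and 46.4 CPM, though both lay above the guide 2 pair. With all 6 libraries, none of these 8 was called in edgeR, with adjusted p from 0.975 to 0.999.

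The 8 genes with the largest rise in that comparison were TLR4, DHRS9, LAMA4, RGS4, IL1RL1, IGFBP2, ADD2 and FLNC. TLR4 rose by 3.25 on the log2 scale (SE 0.15, adjusted p = 3.17e-07 in edgeR). FLNC, the actin crosslinker filamin C, was at 7.44 and 6.76 CPM in guide 2 replicates 1 and 3 against 1.27 and 1.47 CPM in parental replicates 2 and 3 (log2 fold change 2.41, SE 0.18, edgeR adjusted p = 3.36e-05). RGS4, a GTPase-activating protein for heterotrimeric G proteins, was at 10.4 and 10.5 CPM against 1.49 and 1.34 CPM (2.91, SE 0.22, adjusted p = 3.69e-05). LAMA4, a laminin chain, was at 16.2 and 17.8 CPM against 2.22 and 2.34 CPM (2.92, SE 0.34, adjusted p = 9.27e-04). Parental replicate 1 lay with the parental libraries here, at 1.68 CPM for FLNC, 1.96 CPM for RGS4 and 3.17 CPM for LAMA4. Guide 2 replicate 2 did too, at 1.07, 1.99 and 3.08 CPM, so the high level was that of guide 2 replicates 1 and 3. ADD2, a membrane-skeleton adducin, was the exception, with 16.5, 18.8 and 16.3 CPM in guide 2 against 11, 1.36 and 4.03 CPM in parental cells.

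The libraries left out were placed against the genes called without them. Of 328 genes called higher and also tested in the fit over all libraries, guide 2 replicate 2 lay nearer the parental than the guide 2 mean in 268 (81.7%), and of 319 called lower in 217 (68.0%). Parental replicate 1 lay nearer the parental mean in 286 (87.2%) of the higher genes and 242 (75.9%) of the lower ones. In most of these genes guide 2 replicate 2 was thus nearer the parental mean than its own group, while its NF1, C9orf64, JAM3 and HEPH levels were those of guide 2.

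Set against the mean of the parental libraries, guide 2 replicate 2 and the other guide 2 libraries rarely moved the same way. Of the 11606 genes, 112 were at least 2-fold higher in the mean of replicates 1 and 3, and of these replicate 2 was 2-fold higher in 1 (ADD2), 2-fold lower in 50 (44.6%) and within 2-fold in 61. Of 188 that were at least 2-fold lower, replicate 2 was 2-fold lower in 8 (4.26%) and 2-fold higher in 123 (65.4%). Those 8, named after their values were seen, were FPR1, NF1, CD24, JAM3, SLIT3, POSTN, CXCL5 and SESN3. POSTN, the matrix protein periostin, was at 31.8, 6.94 and 26.1 CPM against 63.1, 77.8 and 146 CPM (edgeR adjusted p = 0.223). SLIT3, a guidance ligand, was at 2.78, 0.526 and 3.32 CPM against 4.74, 16.0 and 12.5 CPM (edgeR adjusted p = 0.223).

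**Figure D4:**
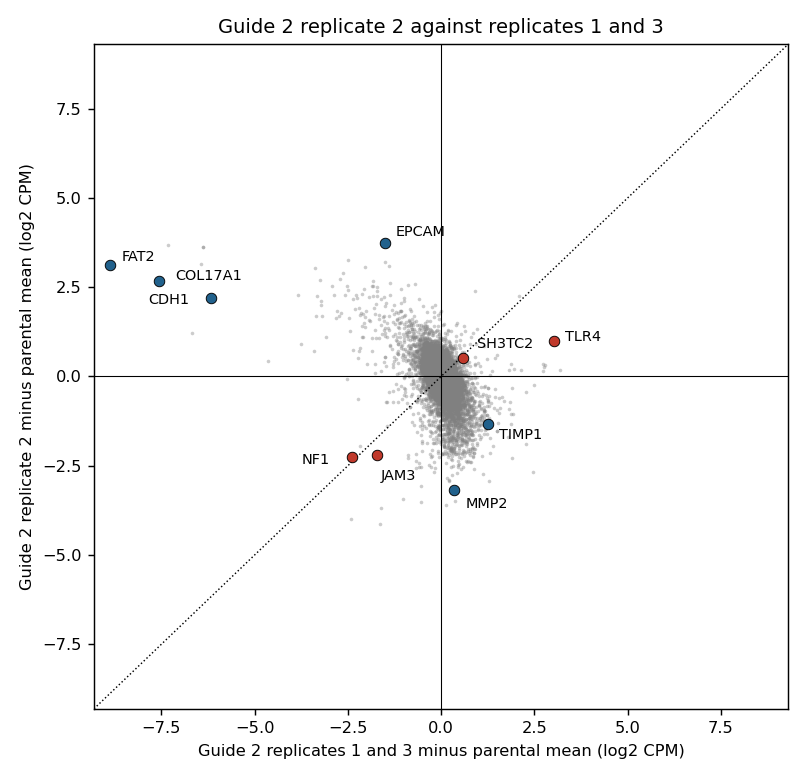
Each point is 1 of 11606 genes, with the log2 CPM of guide 2 replicates 1 and 3 (x axis) and of guide 2 replicate 2 (y axis) minus the parental mean, and a dotted line where both are equal; named genes are red where called over all libraries and blue where not. NF1 and JAM3 lie near that line at -2.38 and -1.73 on the x axis, while CDH1, FAT2 and COL17A1 lie far to the left and above 0.

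Lists of genes by function gave the rest of the picture. The 31 lists held 465 genes, of which 419 were tested. NF1 was the 1 list member called in the main edgeR fit, and 54 members had an unadjusted p under 0.05, beside 1287 of all 17457 genes. DESeq2 called 10 members (4 higher, 6 lower), beside 138 of 17457 genes. Limma voom with library weights called 228 (112 higher, 116 lower), beside 5682 of 17457 genes, and its list counts below are read against that share. The weight it gave guide 2 replicate 2 was 0.0518, the lowest of all 15 libraries, so that library counted little there. The median log2 fold change of all tested genes was 0.022 over all libraries and 9.55e-04 without guide 2 replicate 2 and parental replicate 1, and the list medians below are read against these values.

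Among brakes on RAS, 7 of 10 were tested and NF1 was the 1 called. RASA1, another RAS GTPase-activating protein, was at 62.3, 64.7 and 63.6 CPM in guide 2 and at 69.6, 72.9 and 81.8 CPM in parental cells, without overlap but not called (log2 fold change -0.22, edgeR adjusted p = 0.57). Of 18 genes of the RAS, RAF, MEK and ERK chain none was called with or without the 2 libraries (edgeR, 0 and 3 at an unadjusted p under 0.05), and the list medians were -0.01 and -0.04. DESeq2 called none and limma voom with library weights 10, beside 5682 of 17457 genes in limma voom. With parental replicate 2 left out in place of replicate 1, where 3126 of 17753 genes were called in all, 2 of the 18 were called higher and 7 lower. With replicate 3 left out in its place none was called.

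Of 10 transcripts that report ERK output, none was called over all libraries in edgeR (3 at an unadjusted p under 0.05), with a median log2 fold change of 0.24. DESeq2 called 1 and limma voom 5, beside 138 and 5682 of 17457 genes. Without the 2 libraries 3 of 10 were called higher, beside 1.87% of all genes, and none lower, with a median of 0.25. SPRY4, a Sprouty inhibitor of receptor signalling, was at 112 and 102 CPM in guide 2 replicates 1 and 3, at 58.7 CPM in replicate 2, and at 59.3, 61.6 and 61.4 CPM in parental cells (log2 fold change without the 2 libraries 0.83, SE 0.12, edgeR adjusted p = 0.00327). CCND1, cyclin D1, was at 1110, 437 and 1050 CPM against 499, 699 and 596 CPM (0.77, SE 0.12, adjusted p = 0.00409). In both, replicate 2 was the lowest of the 6 libraries. DUSP4, a phosphatase of ERK, was at 201, 327 and 203 CPM against 177, 115 and 145 CPM, higher in all 3 guide 2 libraries (0.67, SE 0.15, adjusted p = 0.0293). DUSP6 was at 26.5, 63.2 and 30.3 CPM against 36.3, 18.7 and 29 CPM, ETV4 and ETV5 had log2 fold changes of 0.00 in that fit, and none of the 3 was called.

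The feedback list of 15, which shares members with the last, had 3 of 14 called higher without the 2 libraries, SPRY4, DUSP4 and DUSP5, and a median of 0.24, beside 1.87% of all genes called higher. Without guide 2 replicate 2 alone the median was 0.03, with 2 called higher. With parental replicate 2 left out in place of replicate 1 it was -0.05, with 3 called higher and 2 lower, where 1435 and 1691 of 17753 genes were. With replicate 3 left out in its place it was 0.05, with 2 called higher. Limma voom with library weights called 5 higher and 2 lower, beside 2874 and 2808 of 17457 genes. DUSP5, a nuclear ERK phosphatase, was at 25.7, 20.2 and 25.6 CPM against 16.6, 14.9 and 16.9 CPM, without overlap (log2 fold change without the 2 libraries 0.72, SE 0.14, edgeR adjusted p = 0.0131). Of 15 immediate early genes EGR1 alone was called without the 2 libraries, beside 1.87% of all genes called higher and 1.82% lower, at 165, 47.4 and 199 CPM against 49.3, 36.6 and 40.2 CPM (2.28, SE 0.57, edgeR adjusted p = 0.047), and guide 2 replicate 2 was within the parental range. FOS was at 4.73, 16.9 and 7.57 CPM against 5.45, 2.08 and 2.90 CPM and was not called in that fit (edgeR adjusted p = 0.208). Without guide 2 replicate 2 alone, 2 of the 15 immediate early genes were called higher. With parental replicate 2 or 3 also left out it was 2 or 0, so the count depended on the parental library left out. Among the EGF receptor family and its ligands, TGFA (7.66, 102 and 6.94 CPM against 50.1, 11.7 and 27.3 CPM) and NRG1 (22.9, 68.0 and 20.8 CPM against 41.7, 40.8 and 36.4 CPM) were called lower without the 2 libraries (edgeR adjusted p = 0.0441 and 0.0259). Both ligands were highest in guide 2 replicate 2.

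**Figure D5:**
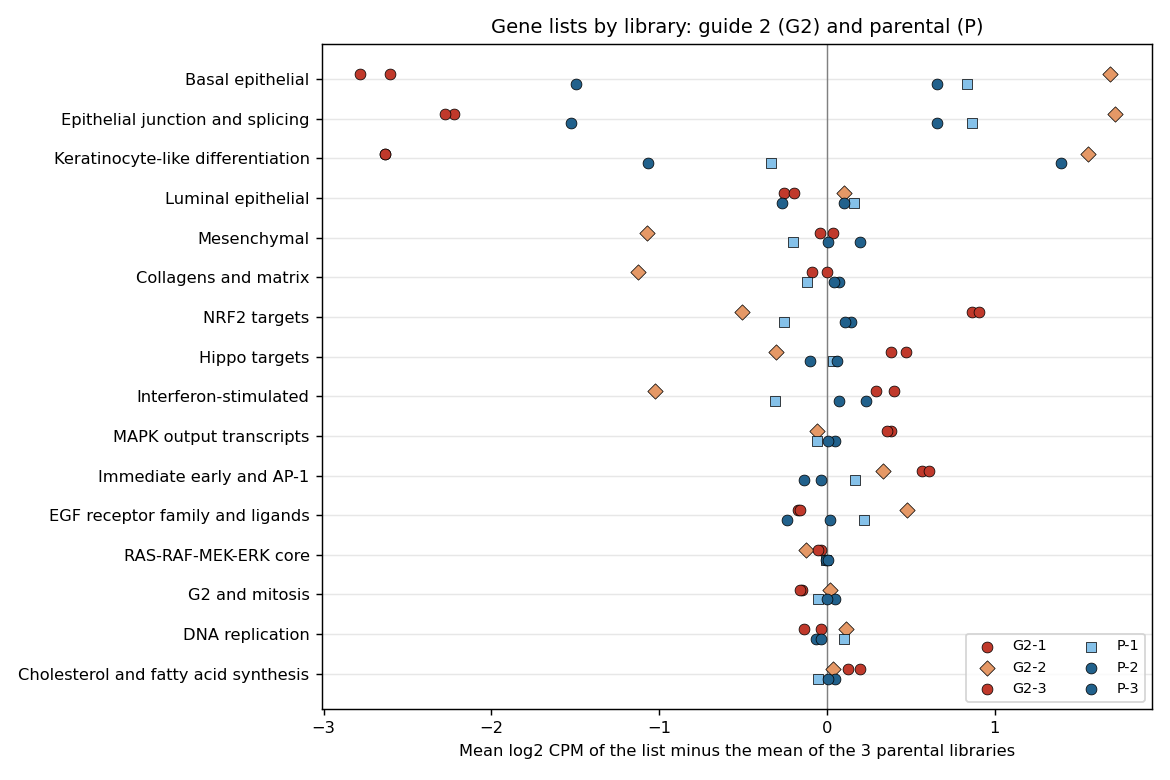
Mean log2 CPM of each gene list in each library minus the mean of the 3 parental libraries (x axis), for guide 2 (G2, upper points of a row) and parental (P, lower points). For the 3 epithelial lists at the top guide 2 replicate 2 is far to the right and guide 2 replicates 1 and 3 far to the left. For MAPK output transcripts guide 2 replicates 1 and 3 lie to the right of all parental libraries and replicate 2 does not. Before the parental mean is taken off, that list was at 6.32, 5.88 and 6.3 in guide 2 replicates 1 to 3. In parental replicates 1 to 3 it was at 5.88, 5.99 and 5.95.

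By list, the basal epithelial genes had a median log2 fold change of 0.19 over all libraries and -2.09 without the 2, with none and 7 of 15 called lower (KRT14, KRT17, TP63, LAMA3, COL17A1, DSG3 and CDH3), beside 1.82% of all genes in the smaller fit. It was 10 of 15 without guide 2 replicate 2 alone, where 544 of 17849 genes were called lower. With parental replicate 2 left out in place of replicate 1 it was 13 of 15, where 1691 of 17753 genes were called lower. With replicate 3 left out in its place it was 7 of 15, where 218 of 17787 genes were. The basal list summed to 3120, 15400 and 3250 CPM in guide 2 and 9320, 3410 and 8170 CPM in parental cells. The list of epithelial junction and splicing genes went from 0.15 to -2.39, with 6 of 21 called lower in the smaller fit, beside the same 1.82%. Without guide 2 replicate 2 alone it was 10 of 21. With parental replicate 2 or 3 left out in place of replicate 1 it was 16 of 21 or 5 of 20. The keratinocyte differentiation list went from -0.05 to -5.04, with S100A8, S100A9, DSC2 and PI3 called lower in the smaller fit, 4 of 21 beside the same 1.82%. With parental replicate 2 left out in place of replicate 1 it was 12 of 21, and 1 was called higher. With replicate 3 left out in its place it was 4 of 16. For this list parental replicate 3 was the highest parental library, with a list sum of 107 CPM beside 58.1 and 47.8 CPM. LAMB3 and ITGB4, subunits of the laminin and integrin of hemidesmosomes, stayed at 672 to 800 and 433 to 581 CPM in guide 2, and neither was called. Luminal genes such as KRT18 (160, 194 and 149 CPM against 168, 131 and 155 CPM) gave no call in edgeR in either fit, with 0 and 3 of 9 at an unadjusted p under 0.05. For that list DESeq2 called none and limma voom 4, beside 5682 of 17457 genes in limma voom.

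Matrix and mesenchymal genes gave calls in both directions without the 2 libraries, beside 1.87% of all genes higher and 1.82% lower. Of 18 mesenchymal genes 2 were called higher and 2 lower, and of 19 collagen and matrix genes 3 and 2. DCN, the proteoglycan decorin, was at 329, 55.4 and 400 CPM in guide 2 and at 98.0, 126 and 91.9 CPM in parental cells (log2 fold change 1.77, SE 0.34, edgeR adjusted p = 0.0162). THBS1, thrombospondin 1, was at 5620, 2050 and 4920 CPM against 3910, 4170 and 3850 CPM (0.42, edgeR adjusted p = 0.0191). TGFBI, a matrix protein induced by TGF-beta, was lower in all 3 guide 2 libraries, at 4830, 2500 and 4450 CPM against 5470, 6840 and 7300 CPM, and fell by 0.58 on the log2 scale in that fit (SE 0.08, adjusted p = 0.00227 in edgeR). The collagen I gene COL1A1 was likewise lower throughout, at 3.69, 5.96 and 4.29 CPM against 7.77, 8.10 and 15.3 CPM (-1.52, SE 0.38, edgeR adjusted p = 0.0462). VIM, vimentin, was at 2110, 866 and 2010 CPM against 1470, 2290 and 2000 CPM and was not called (edgeR adjusted p = 0.877). With parental replicate 2 left out in place of replicate 1, 4 mesenchymal genes were called higher and 2 lower, and 6 and 2 matrix genes. With replicate 3 left out in its place, 1 mesenchymal and 2 matrix genes were called higher and none lower. In that last fit 210 of 17787 genes were called higher and 218 lower.

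NRF2 targets, the antioxidant genes, had a median of 0.46 over all libraries and 0.59 without the 2, with 5 of 15 called higher in the smaller fit, beside 1.87% of all genes, and none lower. With parental replicate 2 left out in place of replicate 1 it was 11 of 15, where 1435 of 17753 genes were called higher. With replicate 3 left out in its place it was 5 of 15, where 210 of 17787 genes were. TXNRD1, thioredoxin reductase, was at 1280, 403 and 1300 CPM against 571, 735 and 454 CPM (1.15, SE 0.25, edgeR adjusted p = 0.0284), and OSGIN1 at 13.4, 2.59 and 12.1 CPM against 4.74, 6.81 and 6.30 CPM (0.99, SE 0.12, adjusted p = 0.00108). TALDO1, transaldolase, was higher in all 3 guide 2 libraries, at 245, 191 and 243 CPM against 180, 172 and 158 CPM (0.59, SE 0.07, adjusted p = 0.00141). HMOX1 and ME1 completed the 5 called without the 2 libraries. Hippo pathway targets gave 3 of 14 higher in that fit, beside 1.87% of all genes. With parental replicate 2 or 3 left out in place of replicate 1, 5 or 2 were called higher and 1 or 0 lower. CCN2, a matricellular protein, was at 553, 95.2 and 549 CPM against 148, 186 and 138 CPM (1.79, SE 0.37, adjusted p = 0.0195), ANKRD1 at 156, 43.2 and 127 CPM against 70.0, 32.2 and 22.7 CPM (2.39, SE 0.32, adjusted p = 0.00237), and AMOTL2 was the third. In CCN2 and TXNRD1 replicate 2 was the lowest of the 6 libraries.

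Of 17 cytokine and NF-kB genes tested, 2 were called higher and 1 lower without the 2 libraries, beside 1.87% and 1.82% of all genes. With parental replicate 2 left out in place of replicate 1 it was 1 higher and 10 lower, where 1435 and 1691 of 17753 genes were. With replicate 3 left out in its place it was 1 higher and 2 lower, where 210 and 218 of 17787 genes were. Limma voom with library weights called 2 higher and 8 lower, beside 2874 and 2808 of 17457 genes. CCL20, a chemokine, was at 25.9, 6.72 and 25.7 CPM against 10.9, 13.7 and 13.1 CPM (0.98, SE 0.14, edgeR adjusted p = 0.00291), and NFKBIA, the NF-kB inhibitor, was lower in all 3 guide 2 libraries at 53.2, 69.8 and 56.4 CPM against 86.2, 71.2 and 72.9 CPM (-0.37, SE 0.06, edgeR adjusted p = 0.00721). CXCL1 was highest in parental replicate 1, at 183 CPM beside 56.7 and 64.7 CPM, and was at 50.7, 69.7 and 50.8 CPM in guide 2. Interferon-stimulated genes gave no call in edgeR over all libraries or without the 2 (1 and 7 of 17 at an unadjusted p under 0.05). DESeq2 called none and limma voom 8, beside 5682 of 17457 genes in limma voom. Without guide 2 replicate 2 alone edgeR called 1 of 17 higher. With parental replicate 2 also left out it was 6 of 17, where 1435 of 17753 genes were, and with replicate 3 in its place none. The interferon-stimulated genes were low in guide 2 replicate 2, as in BST2, a membrane restriction factor, at 60.6, 9.04 and 61.1 CPM.

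Cell cycle and lipid synthesis genes gave no call in either fit but some separation without overlap. Of 20 genes of G2 and mitosis, 7 were lower in every guide 2 library, beside 5.56% of all genes. CENPF, a kinetochore protein, was at 595, 690 and 689 CPM against 750, 923 and 870 CPM (log2 fold change -0.35, edgeR adjusted p = 0.83). No member of that list had an unadjusted p under 0.05 in either edgeR fit. DESeq2 called none and limma voom 3, beside 5682 of 17457 genes in limma voom. Of 19 genes of cholesterol and fatty acid synthesis, 5 were higher in every guide 2 library, beside 3.83% of all genes. FASN, the fatty acid synthase, was at 526, 576 and 539 CPM against 466, 448 and 483 CPM (0.25, edgeR adjusted p = 0.3). For that list 4 and 7 members had an unadjusted p under 0.05 in the edgeR fits. DESeq2 called 1 and limma voom 11, beside 138 and 5682 of 17457 genes.

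Counts without the 2 libraries for the remaining lists follow, beside 1.87% of all genes higher and 1.82% lower. Among matrix proteases and their inhibitors 3 of 18 were higher, among them SERPINE2 and TIMP1. TIMP1, a metalloprotease inhibitor, was at 2340, 400 and 2400 CPM against 686, 1540 and 982 CPM (0.94, SE 0.21, edgeR adjusted p = 0.03). For this list, with parental replicate 2 or 3 left out in place of replicate 1, 5 or 1 were called higher and 3 or 0 lower. Without the 2 libraries a single member was called in each of 5 lists. Higher were PSMB8 (1 of 12, MHC class I), GADD45A (1 of 17, p53 targets) and MT-ND3 (1 of 13, mitochondrial mRNA). Lower were SMAD3 (1 of 19, TGF-beta pathway) and DDIT4 (1 of 16, ATF4 targets). With parental replicate 2 left out in place of replicate 1, counts higher and lower in that order of lists were 5 and 0, 3 and 0, 0 and 0, 3 and 1, and 0 and 3. With replicate 3 left out in its place they were 0 and 0, 2 and 0, 0 and 0, 0 and 0, and 1 and 0. None of 20 DNA replication genes and none of 18 glycolysis and hypoxia genes was called in edgeR without the 2 libraries, with 1 and 5 at an unadjusted p under 0.05. For these 2 lists DESeq2 called none over all libraries, and limma voom called 4 and 11, beside 5682 of 17457 genes in limma voom.

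Markers of other cell types were summed in the same libraries, and their part in the results was not tested beyond these values. The summed leukocyte list was 7.20 to 7.77 CPM in guide 2 and 6.05 to 9.76 CPM in parental cells, carried by genes such as CD14 (4.57, 5.56 and 3.92 CPM against 3.79, 3.54 and 3.29 CPM), with 3 of 10 at 0 in all 6 libraries. The endothelial sum was 6.40 to 14.7 CPM in guide 2 and 8.30 to 16.9 CPM in parental cells. The fibroblast sum was 458, 162 and 524 CPM in guide 2 and 224, 304 and 285 CPM in parental cells, of which DCN was the largest share, while COL1A2 was at most 0.548 CPM. Without the 2 libraries 1 of 7 fibroblast genes tested was called higher (DCN) and 3 lower (COL1A1, COL1A2 and FAP), beside 1.87% and 1.82% of all genes. FAP, a fibroblast surface protease, was at 41.5, 35.0 and 37.9 CPM against 41.4, 66.7 and 74.4 CPM (-0.80, edgeR adjusted p = 0.0142). Of 6 myoepithelial contractile genes ACTA2, smooth muscle actin, was called higher (17.9, 9.50 and 19.4 CPM against 11.2, 12.3 and 9.09 CPM, edgeR adjusted p = 0.045) and CALD1, caldesmon, lower (edgeR adjusted p = 0.0446), beside the same shares. With parental replicate 2 left out in place of replicate 1, the fibroblast genes gave 1 higher and 2 lower, and the contractile genes 3 and 1. With replicate 3 left out in its place they gave 1 and 1, and 1 and 0.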

How the data were processed

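For 15 poly(A) RNA libraries the authors deposited raw counts by gene, as integers and without pooling. Extraction used the RNeasy kit and library preparation the KAPA mRNA Hyperprep kit, per the labels. Per the submitters' processing notes, Trim Galore 0.6.0, STAR 2.7.8a and GRCh38 were used. The counting program, annotation and use of strand are not given in the sources used here, so overlapping genes and close copies carry that uncertainty. A second deposited table, of CPM, was not used, and CPM was computed from the counts.

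Of 60721 gene identifiers, 60357 matched a symbol and 58503 a GENCODE release 29 record. Library totals were 46129559 to 78976917 counts. Guide 2 was compared with parental cells in edgeR 4.0.16 (R 4.3.3) by a quasi-likelihood test in a group-means model over all 15 libraries, with filterByExpr (17457 genes) and TMM scaling. The Benjamini-Hochberg adjustment ran over all tested genes at 0.05. The SE was obtained from the log2 fold change and the F statistic (size over root F). Log2 CPM used a prior count of 2. NF1 was also tested by exact permutation in scipy 1.17.1. Alternatives used RLE scaling, no filter, a replicate block, only the 6 libraries, DESeq2 1.42.0, limma 3.58.1 voom with sample quality weights, a minimum absolute log2 fold change of 1, and the removal of libraries. The removals of guide 2 replicate 2 with parental replicate 2 or 3 were chosen after seeing the data.

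The named genes are NF1, every called gene, the 10 higher and 10 lower genes without overlap and with the smallest p, the 8 in each direction with the largest fold change without both libraries set apart, the 8 furthest above and below their group in each of those libraries, and members of 31 gene lists. Genes chosen by rank needed a mean log2 CPM of at least 1. The members and lists were chosen with earlier results of these data known. Promoter sequences are from RefSeq, GRCh38.p14. Some members of the lists are not reported here by name.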

Additional observations from a re-analysis of the deposited data

How the results depend on the processing

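The log2 fold change of NF1 kept its direction and its side of the threshold in every setting tried. The count of 9 called genes did not hold. It was 9 with RLE scaling, 8 with a minimum absolute log2 fold change of 1 and 7 with the replicate block, but 17 without a filter, 1 with only the 6 libraries in the fit, 138 in DESeq2 and 5682 in limma voom with sample quality weights, which gave guide 2 replicate 2 the lowest weight of all 15 libraries, 0.0518. Leaving out 1 library gave from 2 to 1064 genes: 1064 without guide 2 replicate 2, 2 without replicate 1, 5 without replicate 3, and 15, 3 and 4 without parental replicates 1, 2 and 3. Without guide 2 replicate 2 and parental replicate 1 together it was 654, and with parental replicate 2 or 3 left out in place of replicate 1 it was 3126 or 428, so the parental library left out moved the count as much as many other choices. The cause was not tested. Of the values for single genes and lists under these settings, 781 kept their direction and call (or, for list medians, which carry no test, moved by less than their spread), 140 gained the call, 35 lost it, 45 single genes' values changed sign, and 34 list medians moved by more than their spread. No value called over all libraries changed sign. For FAT2, LAD1, CDH1, TP63, ESRP1 and MPZL2, none called over all libraries, the log2 fold changes were 0.36, 0.57, 0.15, 0.38, 0.75 and 0.74 with all libraries and -11.41, -10.32, -9.33, -8.18, -8.4 and -8.25 without guide 2 replicate 2, where all 6 turned lower and were called in edgeR (adjusted p from 0.00582 to 0.0145). With parental replicate 1 also left out they were -10.38, -9.16, -8.82, -7.23, -7.08 and -6.84, with replicate 2 in its place -11.98, -10.9, -9.89, -8.75, -8.98 and -8.82, and with replicate 3 in its place -11.45, -10.4, -9.04, -8.17, -8.55 and -8.44, all called. With sample quality weights they were -10.76, -9.05, -8.99, -7.51, -7.4 and -7.17, of which TP63, ESRP1 and MPZL2 were called, and with the replicate block FAT2, LAD1, CDH1, TP63 and ESRP1 were at -0.79, -0.19, -0.66, -0.53 and -0.07, none called. Leaving out 1 library in turn gave FAT2 from -11.41 to 1.38, LAD1 from -10.32 to 1.72, CDH1 from -9.33 to 0.73, TP63 from -8.18 to 1.31, ESRP1 from -8.4 to 2.05, MPZL2 from -8.25 to 2.13, DSC3 from -6.88 to 0.11 and DSG3 from -6.94 to 0.51. DSC3 and DSG3 were at -0.47 and -0.07 with all libraries. Replicate numbers were checked for pairing: deviations from the group means of libraries with equal numbers correlated at -0.75 to -0.123, and those with other numbers at -0.595 to 0.69. No positive correlation was seen between equal numbers. Deviations within a group of 3 are tied to each other, so this cannot decide whether equal numbers shared a batch. At these depths 3 counts are 0.0434 to 0.0649 CPM, so levels below that are not resolved. With 2 libraries left in each group, the spread is largely that of the other genotypes.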

Other observations

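The parental libraries differed among themselves in a pair of the genes named above. CXCL5, a neutrophil chemokine, was at 25.6, 12.8 and 18.0 CPM in parental replicates 1 to 3 and at 6.99, 6.92 and 5.94 CPM in guide 2. SESN3, a stress-induced sestrin, was at 3.49 CPM in parental replicate 1 and at 13 and 13.8 CPM in the others, while guide 2 held 3.79, 0.761 and 4.42 CPM. These values are given without a test.

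TMPRSS15, the gene of enteropeptidase, was at 12.4, 0.381 and 16.1 CPM in guide 2 and at 0.561, 5.80 and 5.26 CPM in parental cells, and it had 0 counts in all 3 empty-vector libraries. The gene was therefore read in every guide 2 and parental library and in none of the empty-vector libraries.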
